A study of Homo sapiens with 3 samples.

Results

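Laminin-332, the hemidesmosome and the integrins that bind them were followed through 9 genes of AsPC-1 cells, an established human pancreatic cancer line: LAMA3, LAMB3, COL17A1, ITGA2, ITGA3, ITGA6, ITGAV, ITGB1 and ITGB4. They were chosen by gene symbol, with earlier results of these data known, and all 9 were found among the 16463 genes of the deposited expression table. Cultures were transfected with a non-targeting negative control siRNA (siNC) or with 1 of 2 siRNAs against the long non-coding RNA LINC00941 (si#1 and si#2), each at 200 nM, and total RNA was taken 24 h later, on day 1. Each condition was 1 library of 1 line, so no siRNA could be tested against siNC on its own, and every interval given covers counting error only, not the spread between cultures. Both knockdown comparisons share the siNC library.

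Laminin-332 is a basement membrane protein whose alpha3 and beta3 chains are encoded by LAMA3 and LAMB3. Epithelial cells hold on to it through the hemidesmosome, in which the integrin alpha6beta4 and the transmembrane collagen XVII join the laminin outside the cell to plectin, dystonin and keratin filaments inside. Integrins are pairs of an alpha and a beta chain. The beta1 chain pairs with alpha2, alpha3, alpha6 and alphaV, among others, and links to actin through talin and vinculin, whereas beta4 pairs with alpha6 alone.

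The targeted RNA was checked first. LINC00941 had 1551 reads in siNC, 214 under si#1 and 273 under si#2, and it fell by 2.89 and 2.56 on the log2 scale, which is 7.42-fold and 5.91-fold lower. All 8 epithelial markers examined were listed, with a summed level of 9625 TPM (transcript abundance per length and library) in siNC, 7426 under si#1 and 11242 under si#2, mostly from KRT8, KRT18 and KRT19. Of 5 fibroblast markers 2 were listed, at a summed level of at most 0.126 TPM. VWF was listed alone of 3 endothelial markers, at up to 0.0478 TPM, none of the 3 acinar or 3 endocrine markers was listed, and of 3 leukocyte markers CD68, a lysosomal protein, was listed at 21.0 to 25.9 TPM. Libraries held 88690997 (siNC), 92510692 (si#1) and 90867405 (si#2) reads.

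The 9 genes were among the well expressed genes of these cells. Together they took 0.932% of the reads in siNC, 0.944% under si#1 and 0.877% under si#2. Each fold change below compares log2(read count + 1) of a pair of libraries, quantile-normalized so that all libraries have one distribution, and a gene was called at a change of at least 2-fold (1 on the log2 scale), the threshold of the study. By this rule 1 of the 9 genes, ITGAV, was called under si#1, none under si#2, none with both and none between si#1 and si#2. Over all listed genes, 12% were called under si#1, 12.7% under si#2, 6.04% with both in one direction and 8.23% between the siRNAs. All 9 genes averaged at least 10000 reads, a depth at which those shares were lower. Among the 1934 genes with that many reads, 2.79% were called under si#1, 2.9% under si#2, 1.29% with both and 0.517% between the siRNAs. The 9 genes had a median log2 fold change of 0.21 under si#1 and 0.13 under si#2, beside 0.07 and 0.05 over those 1934 genes. In bulk RNA, fewer cells of a kind and less RNA per cell cannot be told apart.

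**Figure D1:**
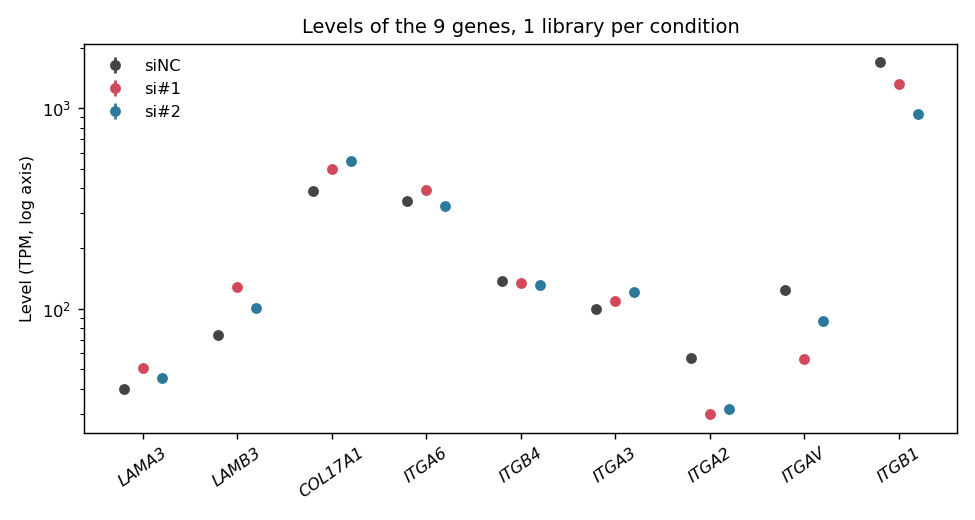
Level of each of the 9 genes (TPM by the authors, log axis) in the siNC, si#1 and si#2 libraries, 1 point per library, with 95% Poisson counting intervals that are smaller than the points. ITGB1 was highest in all 3 libraries, and LAMA3, LAMB3 and COL17A1 were higher with both siRNAs than in siNC, while ITGA2, ITGAV and ITGB1 were lower.

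Promoter windows of 7 of the 9 genes, all but ITGA3 and ITGB4, were found in the RefSeq table (GRCh38.p14), which reaches from 250 bases before to 50 bases after each start. They are shown for the laminin chains, which were higher, and for ITGAV and ITGB1, which were lower in TPM. These windows were picked for their AP-1 and ETS-1 motifs, of MAPK-responsive factors, with the fold changes known. The contrast between them is therefore no test. The AP-1 motif TGACTCA, searched on both strands, was in 4.95% of all 35116 windows. The ETS-1 motif CGGAA, also searched on both strands, was in 34.9%, and the ELK-1 motif CTTCC, which can overlap the ETS-1 motif, in 71.9%. Capitals mark AP-1 motifs in the laminin windows and ETS-1 motifs in the integrin windows.
LAMA3, start at 23873020 inside the gene (chr18:23872770-23873069, plus strand): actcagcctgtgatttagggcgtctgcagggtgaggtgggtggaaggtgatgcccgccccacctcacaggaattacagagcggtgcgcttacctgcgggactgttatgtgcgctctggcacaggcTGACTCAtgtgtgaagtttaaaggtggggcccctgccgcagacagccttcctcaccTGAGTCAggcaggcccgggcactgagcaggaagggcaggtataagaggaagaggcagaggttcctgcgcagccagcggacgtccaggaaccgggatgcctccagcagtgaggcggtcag
LAMB3, start at 209651374 (chr1:209651325-209651624, minus strand): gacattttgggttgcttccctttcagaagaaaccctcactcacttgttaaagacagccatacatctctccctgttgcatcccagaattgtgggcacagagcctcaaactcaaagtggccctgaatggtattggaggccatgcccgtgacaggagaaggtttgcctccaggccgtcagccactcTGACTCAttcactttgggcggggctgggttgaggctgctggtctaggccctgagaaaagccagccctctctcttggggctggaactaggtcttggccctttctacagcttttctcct
ITGAV, start at 186590056 (chr2:186589806-186590105, plus strand): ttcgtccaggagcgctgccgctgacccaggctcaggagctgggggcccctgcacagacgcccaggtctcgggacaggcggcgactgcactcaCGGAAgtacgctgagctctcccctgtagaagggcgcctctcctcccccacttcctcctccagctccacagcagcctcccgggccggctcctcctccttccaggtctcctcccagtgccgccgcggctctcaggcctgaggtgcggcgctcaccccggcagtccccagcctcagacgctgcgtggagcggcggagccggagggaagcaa
ITGB1, start at 32958230 (chr10:32958181-32958480, minus strand): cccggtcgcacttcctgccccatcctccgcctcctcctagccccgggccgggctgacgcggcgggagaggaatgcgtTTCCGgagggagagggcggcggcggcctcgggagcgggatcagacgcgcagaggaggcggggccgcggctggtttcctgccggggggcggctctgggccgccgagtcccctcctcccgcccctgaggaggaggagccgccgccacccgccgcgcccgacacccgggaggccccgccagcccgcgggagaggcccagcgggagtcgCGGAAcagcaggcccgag

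The 7 genes had 12 windows. The LAMA3 window held 2 AP-1 motifs, 125 and 69 bases before the start, and the LAMB3 window shown held 1, at 67 bases before it. Like that of LAMA3, the start of the LAMB3 window shown lies inside the gene. The 2 other LAMB3 windows, among them that at the outer start of the gene (209652425), held none. Nor did the windows of the other 5 genes. CGGAA or its complement was in 4 of the 12 windows, a share near that of all windows: 1 copy each in ITGA2 (85 bases before the start), ITGAV (158 before) and the second ITGA6 window (158 before), and 2 in the ITGB1 window shown (173 before and 32 after). It was in no LAMA3, LAMB3 or COL17A1 window. Of the genes not shown, ITGA2 (lower) and ITGA6 (0.21 and 0.03) held an ETS-1 motif, and COL17A1 (higher) held no AP-1 motif. CTTCC or its complement was in 7 of the 12 windows, of all genes but ITGA2, and in each window shown. These are matches of letters in a window, and binding was not measured.

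Both laminin-332 chains among the 9 genes were higher with both siRNAs, LAMB3 more than LAMA3, and neither reached 2-fold. LAMB3 (chromosome 1, 209614870 to 209652425, minus strand), the beta3 chain, had 18359 reads in siNC, 35828 under si#1 and 29000 under si#2, or 74.3, 129 and 101 TPM. It was the highest of the 9 genes in fold change with either siRNA. Its log2 fold change was 0.93 (counting interval 0.90 to 0.95) under si#1 and 0.72 (0.69 to 0.74) under si#2, and 3.36% and 8.17% of the 1934 genes were at least as far from 0. By level LAMB3 was number 7 of the 9 in siNC, 5 under si#1 and 6 under si#2.

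LAMA3, the alpha3 chain (chromosome 18, 23689453 to 23955066, plus strand), had 16346 reads in siNC, 23462 under si#1 and 21697 under si#2, or 39.8, 50.7 and 45.2 TPM. Both siRNA libraries were above siNC. Its log2 fold changes were 0.49 (0.46 to 0.52) and 0.45 (0.42 to 0.48), the latter from 0.19 to 0.60 over the alternatives. LAMA3 and LAMB3 were thus both higher with each siRNA, by less than 2-fold, and this direction was kept under all 10 other scalings and filters tried. A filter at 100 reads, a pseudocount of 10 and a limit to protein-coding genes hardly move genes this deep. LAMB3 stayed at 0.93 under si#1 in each, so these add little. The transcripts were not in equal amount. LAMA3 was the lower, and the ratio of LAMB3 to LAMA3 in TPM was 1.87 in siNC, 2.54 under si#1 and 2.23 under si#2.

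Of 9 other laminin chain genes, 6 were listed and none passed 2-fold with either siRNA, beside 12% and 12.7% of all listed genes. Their median log2 fold change was 0.06 under si#1 and 0.14 under si#2, beside 0.03 and 0.02 over all listed genes. LAMA2, the alpha2 chain known from muscle, was at -0.80 and -0.70 from 914 reads in siNC. LAMB2, the beta2 chain, was at 0.30 and 0.37. LAMA5, the alpha5 chain, was at -0.25 under si#1, above 0 under 1 alternative, and at 0.10 under si#2, below 0 under 2.

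COL17A1 (chromosome 10, 104031286 to 104085880, minus strand) encodes collagen XVII, the transmembrane collagen of the hemidesmosome. It had 130785 reads in siNC, 191462 under si#1 and 214184 under si#2, or 385, 499.5 and 543 TPM. In level it was next to the highest of the 9 genes in every library. By read count it was number 43 of all genes in siNC, 26 under si#1 and 23 under si#2. Its log2 fold changes were 0.44 (0.43 to 0.45) and 0.53 (0.53 to 0.54), but 0.49 and 0.68 by total count. Over the 10 alternatives they ran from 0.29 to 0.55 under si#1 and from 0.29 to 0.69 under si#2. By the quantile-normalized values 19.4% and 18.1% of the 1934 genes were at least as far from 0. On that scale this change was not large among genes of that depth.

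The hemidesmosomal integrin itself differed little. ITGA6 (chromosome 2, 172427336 to 172506459, plus strand), which encodes the alpha6 chain, had 120116 reads in siNC, 152759 under si#1 and 130616 under si#2, or 346, 389 and 324 TPM. Its log2 fold change was 0.21 (0.20 to 0.23) under si#1 and 0.03 (0.02 to 0.04) under si#2, and the latter fell below 0 under 2 of the 10 alternatives. ITGB4, the beta4 chain (chromosome 17, 75721459 to 75757818, plus strand), had 47034 reads in siNC, 51892 under si#1 and 52675 under si#2, or 137, 134 and 132 TPM. Read counts were higher and TPM lower than in siNC, and its log2 fold changes of 0.07 and 0.13 changed sign under 3 and 2 of the 10 alternatives. No direction can be given for ITGB4. The ratio of ITGA6 to ITGB4 was 2.52 in siNC, 2.91 under si#1 and 2.45 under si#2, whereas that of COL17A1 to ITGB4 was 2.81, 3.73 and 4.11.

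ITGA3 (chromosome 17, 50056110 to 50090481, plus strand) encodes alpha3, which with beta1 forms a laminin-332 receptor outside hemidesmosomes. It had 29479 reads in siNC, 36436 under si#1 and 41550 under si#2, or 99.7, 109 and 121 TPM. Both siRNA libraries were above siNC, with log2 fold changes of 0.26 (0.24 to 0.28) and 0.51 (0.49 to 0.53), and the smaller of them came down to 0.01 under 1 alternative.

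**Figure D2:**
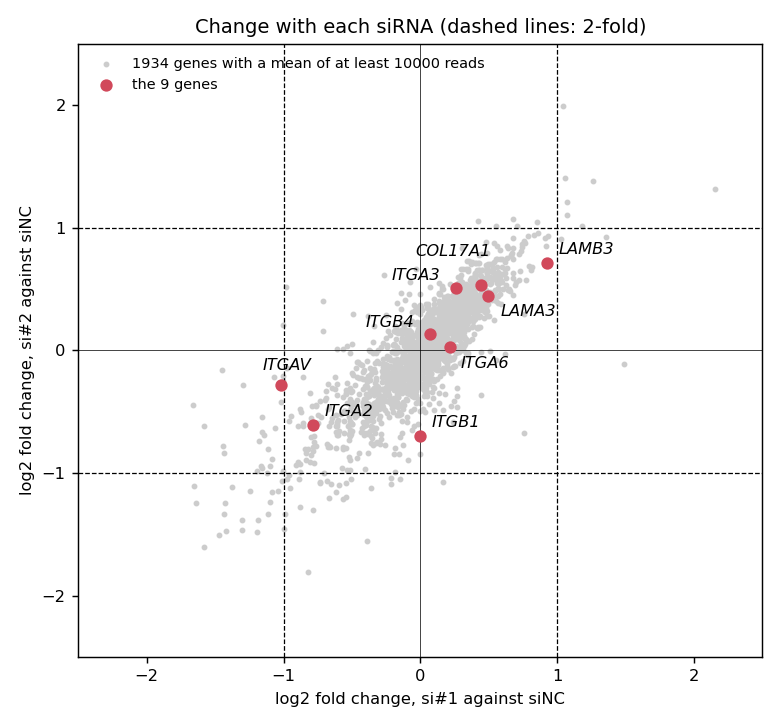
Log2 fold change of read counts after quantile normalization under si#1 (x axis) and si#2 (y axis) against the shared siNC library, for the 9 genes (red) and the 1934 genes averaging at least 10000 reads (gray). Dashed lines mark 2-fold, ITGAV at -1.02 is the one gene of the 9 past a line, and LAMB3 at 0.93 and 0.72 is the highest of them.

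The remaining integrin chains were lower with at least 1 siRNA. ITGA2 (chromosome 5, 52989352 to 53094779, plus strand), the alpha2 chain of a collagen receptor, had 26852 reads in siNC, 16079 under si#1 and 17383 under si#2, or 56.6, 30.02 and 31.6 TPM. Both siRNAs gave similar levels. Its log2 fold changes were -0.78 (-0.81 to -0.75) and -0.61 (-0.64 to -0.58), 1.72-fold and 1.53-fold lower, and they stayed below 0 under all 10 alternatives. ITGA3 and ITGA2, alpha chains that bind laminin and collagen, stood at a ratio of 1.76 in TPM in siNC, 3.63 under si#1 and 3.83 under si#2.

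ITGAV, the alphaV chain of receptors for vitronectin and other matrix proteins (chromosome 2, 186590056 to 186680901, plus strand), had 52644 reads in siNC, 27120 under si#1 and 42977 under si#2, or 124, 56.5 and 87.0 TPM. The siRNAs differed here. The log2 fold change was -1.02 (-1.04 to -0.998) under si#1, 2.03-fold lower, and -0.28 (-0.30 to -0.26) under si#2, and the latter turned above 0 under 2 of the 10 alternatives. Between si#1 and si#2 the log2 difference was -0.74 (-0.76 to -0.72), with 1.60% of the 1934 genes at least as far apart. ITGAV lay just past the threshold under si#1: without the median change of genes with like G and C content it was at -0.85, and without that of genes with like length, as implied by reads per TPM, at -0.75.

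ITGB1 (chromosome 10, 32900318 to 32958230, minus strand), the shared beta1 chain, had 385071 reads in siNC, 338519 under si#1 and 247008 under si#2, or 1702, 1324 and 939 TPM. It was the highest of the 9 genes in every library. With si#2 its log2 fold change was -0.70 (-0.71 to -0.70), 1.63-fold lower. With si#1 it was 0.00, because ITGB1 ranked number 8 by read count in both libraries and quantile normalization gives 1 value to 1 rank, and scaling by the total count gave -0.25. Under the alternatives the si#1 value lay from -0.36 to 0.11. The ratio of ITGB1 to the sum of its 4 alpha partners measured here (ITGA2, ITGA3, ITGA6 and ITGAV) was 2.72 in TPM in siNC, 2.27 under si#1 and 1.67 under si#2. ITGB1P1, a processed pseudogene on chromosome 19, was listed with 2069, 1195 and 911 reads, so some reads may have been divided between the copies.

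**Figure D3:**
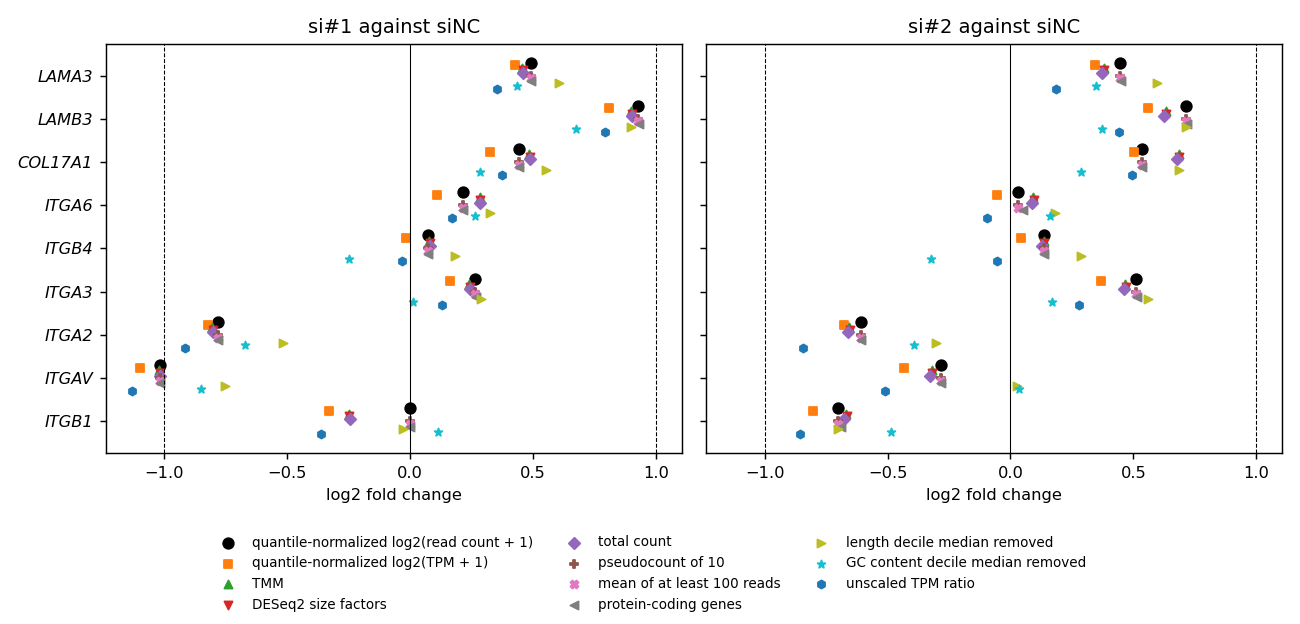
Log2 fold change of the 9 genes under si#1 (left) and si#2 (right) against siNC under quantile-normalized read counts (black circles) and 10 alternatives (colored), with dashed lines at 2-fold. The laminin chains and COL17A1 stay above 0 and ITGA2 below 0 throughout, ITGAV crosses the 2-fold line under si#1, and ITGB4, ITGA6 (si#2), ITGAV (si#2) and ITGB1 (si#1) have symbols on both sides of 0.

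The siRNAs differed most in ITGAV and ITGB1. The log2 difference between si#1 and si#2 was -0.74 for ITGAV and 0.70 (0.69 to 0.71) for ITGB1, and for the other 7 genes it ran from -0.25 (ITGA3) to 0.21 (LAMB3). The ITGB1 value rests on its rank and was 0.42 by TMM and 0.43 by total count, while ITGAV was at -0.70 and -0.69. An siRNA can also act on other RNAs through bases 2 to 8 of its guide strand, the seed, where a 3′ UTR holds the matching letters. The seed match is CATGAAC for si#1 and TGAACAT for si#2, searched on the mRNA strand of the GENCODE 3′ UTRs. Of the 9 genes, ITGAV and ITGB1 alone held a match, and these sites, read from GRCh38, are shown with the match in capitals because they lie in the 2 genes that differed most between the siRNAs.
ITGAV, si#1 (chr2:186677774-186677800, plus strand): tttataactgCATGAACttggattttt
ITGAV, si#2 (chr2:186679413-186679439, plus strand): cttcaaaaaaTGAACATttatatatct
ITGB1, si#2 (chr10:32900608-32900634, minus strand): gcctttttaaTGAACATgtgaagttat

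ITGAV, with a 3′ UTR of 3612 bases, held 1 match to each siRNA, and its level was lowest under si#1. ITGB1, with 1255 bases, held 1 match to si#2 and its level was lowest under si#2. Over genes with a 3′ UTR and at least 100 reads on average, 9.54% held the si#1 match and had a median log2 fold change of -0.16 under si#1, beside 0.08 without the match, but also of -0.13 beside 0.06 under si#2. The si#2 match was held by 15.4%, with medians of -0.26 against 0.10 under si#2 and -0.17 against 0.09 under si#1. Genes with a match had longer 3′ UTRs (median 3461 and 3227 bases, against 1195 and 1095) and a lower G and C content (43.3% and 41.9%, against 49.0% and 50.004%). The part of the seed matches in the levels of ITGAV and ITGB1 was not tested.

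The 9 genes also fell along the base composition of their transcripts. LAMA3 (50.7% G and C), COL17A1 (56.1%), LAMB3 (59.5%), ITGA3 (60.9%) and ITGB4 (63.6%) had log2 fold changes above 0 with both siRNAs, ITGB4 with the change of sign given above. ITGAV (38.3%), ITGB1 (39.5%) and ITGA2 (40.1%) had values at or below 0, and ITGA6 (42.5%) was above 0. The medians of all listed genes ran the same way: over 10 equal groups of genes ordered from the lowest to the highest G and C content, the median log2 fold change ran from -0.17 to 0.32 under si#1 and from -0.32 to 0.46 under si#2. After the median of its group was taken from each gene, LAMB3 was at 0.68 and 0.37, LAMA3 at 0.43 and 0.35 and COL17A1 at 0.29 with both siRNAs. ITGA2 was at -0.67 and -0.39 on the same scale, and ITGB1 at 0.11 and -0.48. ITGA3 came to 0.01 and 0.17 and ITGB4 to -0.25 and -0.32. What part the composition of the libraries had in these values was not tested.

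**Figure D4:**
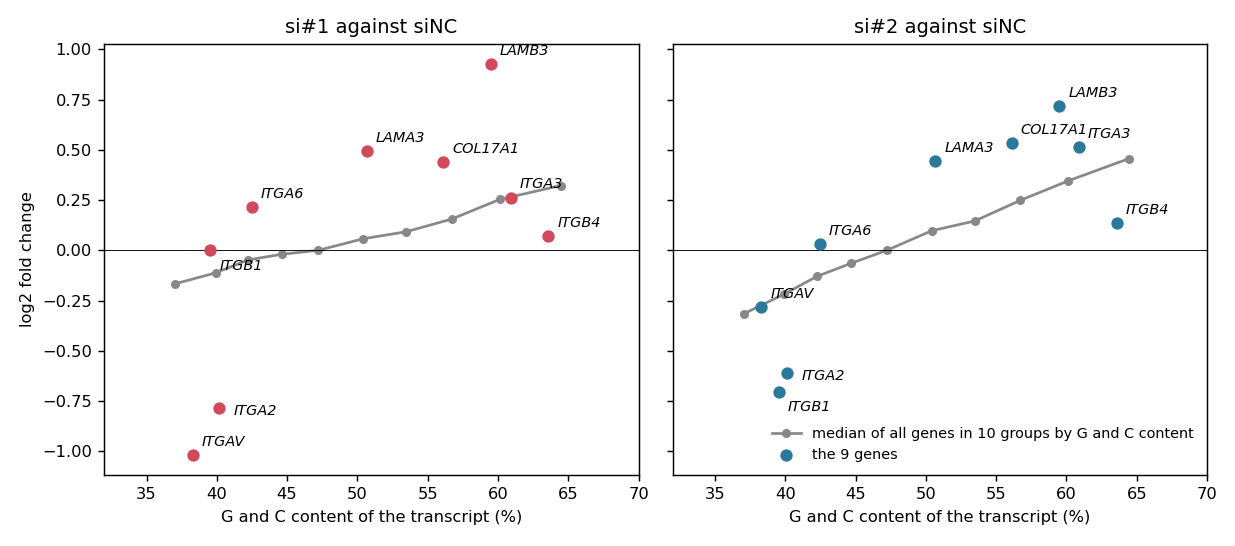
Log2 fold change of the 9 genes (colored points) against the G and C content of the transcript (%), under si#1 (left) and si#2 (right), and the median of all listed genes in 10 equal groups by G and C content (gray line, each group at its median content). The gray line rises from -0.17 to 0.32 under si#1 and from -0.32 to 0.46 under si#2, and LAMA3, LAMB3, COL17A1 and ITGA6 lie above it in both panels, while ITGA2 and ITGB4 lie below it.

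The partners of the hemidesmosome, cytoplasmic but for the tetraspanin CD151, did not move in one direction. Of 8 genes on this list 6 were listed, and their median log2 fold change was -0.25 under si#1 and 0.38 under si#2. Of these 1 was called under si#1 and none under si#2, beside 12% and 12.7% of all listed genes. DST, the dystonin gene, had 56759 reads in siNC, 28095 under si#1 and 28780 under si#2, at -1.12 (-1.14 to -1.10) and -0.999 (-1.02 to -0.98). This count covers 5 listed transcripts together, so the form of dystonin in hemidesmosomes was not measured apart. DST passed 2-fold under si#1 and lay at the threshold under si#2, just short of a call. It was past 2-fold under 9 (si#1) and 4 (si#2) of the 10 alternatives. CD151, a tetraspanin partner of the laminin-binding integrins, was at 0.49 and 0.63, and ERBIN, which binds beta4, at -0.50 and -0.60. KRT8 was at -0.50 under si#1 and 0.30 under si#2, so the siRNA libraries lay on opposite sides of siNC. PLEC, the plectin gene, was at 0.29 and 0.62, and KRT5 and KRT14 were not listed.

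Of the other integrin chains, 5 of 14 alpha and 5 of 6 beta genes were listed. With both siRNAs 1 of these 10 was called, beside 6.04% of all listed genes. ITGB8, a beta chain that pairs with alphaV, had 19712 reads in siNC, 7429 under si#1 and 7635 under si#2. Its log2 fold changes were -1.43 (-1.47 to -1.40) and -1.34 (-1.38 to -1.30), and it stayed past 2-fold under all 10 alternatives. ITGB2, the beta chain known from leukocytes, was at 0.79 and 0.98 from 1057 reads in siNC, and ITGB5, another partner of alphaV, at 0.42 and 0.35. ITGA5, the alpha chain of the fibronectin receptor, was at 0.60 and 0.43. ITGA7 was at 0.08 and 0.13 and ITGAE at 0.03 and 0.09, and both changed sign under some alternatives. ITGA10 passed 2-fold upward under si#1, ITGA1 downward and ITGB7 upward under si#2, each from under 100 reads on average. The median of the listed alpha genes was 0.08 under si#1 and 0.13 under si#2, and that of the beta genes -0.07 and 0.35, or 0.18 and -0.13 over the 4 beta genes averaging at least 100 reads, so its sign depended on that filter.

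Among 30 adaptors and kinases that join integrins to actin, 28 were listed. With both siRNAs 1 was called higher and none lower, beside 6.04% of all listed genes called with both in one direction. TLN1, which encodes the talin that activates integrins, had 12363 reads in siNC, 26522 under si#1 and 27773 under si#2, at 1.07 (1.04 to 1.10) and 1.21 (1.18 to 1.24). In TPM it stood at 23.7, 45.0 and 45.8, just short of 2-fold, and by fold change it stayed past 2-fold under 7 (si#1) and 8 (si#2) of the 10 alternatives. ILK, the integrin-linked pseudokinase, was at 0.67 and 0.59, while LIMS1, its binding partner, was at -0.50 and -0.84. VCL, the vinculin gene, passed 2-fold under si#1 alone, at -1.01, and was at -0.21 under si#2. LIMS2, with under 100 reads on average, passed 2-fold upward under si#1 alone. The median of the 28 genes was -0.11 under si#1 and 0.15 under si#2.

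Of 16 other matrix ligands 8 were listed, with medians of 0.36 and 0.50, beside 0.03 and 0.02 over all listed genes. Under si#1 2 were called higher and 1 lower, beside 12% of all listed genes in either direction. With si#2 1 was called higher, beside 12.7%, and with both siRNAs 1 was, beside 6.04%. Over the 6 averaging at least 100 reads the medians were 0.47 and 0.61, and HSPG2 alone of these was below 0. NID1, the nidogen that links laminin to collagen IV, had 1132 reads in siNC, 3222 under si#1 and 2976 under si#2, and was called with both, at 1.46 (1.36 to 1.56) and 1.40 (1.30 to 1.498), as under all 10 alternatives. COL7A1, the anchoring fibril collagen below hemidesmosomes, was called under si#1 and had 238, 505 and 416 reads in siNC, si#1 and si#2, at 1.02 (0.79 to 1.24) and 0.72 (0.49 to 0.96). Its si#1 call held under 5 of the 10 alternatives, and the values came down to 0.40 and 0.27. TNC, tenascin C, was at 0.49 and 0.69. HSPG2, the perlecan gene, had 24744 reads in siNC, 14625 under si#1 and 19162 under si#2, at -0.81 and -0.35. COL3A1 and COL4A2 had under 100 reads on average and were below 0 under si#1, COL3A1 past 2-fold.

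Of 8 enzymes that process laminin-332 or shed collagen XVII 5 were listed, with medians of 0.10 and -0.06. None was called with both siRNAs, beside 6.04% of all listed genes. MMP14, a membrane-bound metalloprotease that cuts laminin-332, had 1930 reads in siNC, 4190 under si#1 and 3640 under si#2, at 1.08 (1.00 to 1.16) and 0.93 (0.85 to 1.01). It was called under si#1, as under 8 of the 10 alternatives. BMP1, which processes laminin chains, was at 0.45 and 0.48, and ADAM9, a shedding protease, at 0.10 under si#1, below 0 under 2 alternatives, and -0.49 under si#2.

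All 5 other laminin receptors examined were listed, with medians of 0.53 and 0.46, beside 0.03 and 0.02 over all listed genes. None was called under si#1 and 1 was under si#2, beside 12% and 12.7% of all listed genes. BCAM, which binds the laminin alpha5 chain, was at 0.89 (0.54 to 1.25) under si#1 and 1.48 (1.15 to 1.81) under si#2, from 102 reads in siNC, and was called under si#2, as under 9 of the 10 alternatives. SDC1 and SDC4, syndecans that bind laminin through their sugar chains, were at 0.64 and 0.49 and at 0.53 and 0.46. DAG1, the dystroglycan gene, was at -0.63 and -0.34 from 4890 reads in siNC. SDC1 was the higher syndecan in level, at 235, 333 and 293 TPM in siNC, si#1 and si#2.

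**Figure D5:**
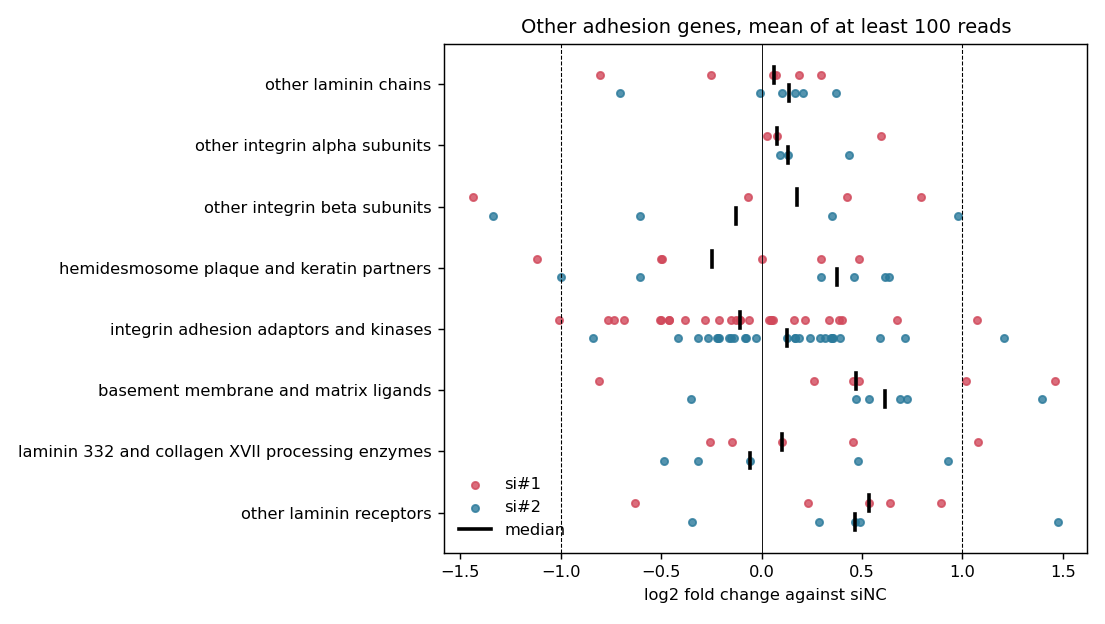
Log2 fold change against siNC under si#1 (red) and si#2 (blue) of the other adhesion genes averaging at least 100 reads, 1 point per gene in 8 lists, with a black bar at the median and dashed lines at 2-fold. ITGB8 at -1.43 and -1.34, TLN1 at 1.07 and 1.21 and NID1 at 1.46 and 1.40 are the genes past 2-fold with both siRNAs.

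For the 3 genes of the 9 with the largest mean absolute change, the most similar genes were sought among 8497 protein-coding genes averaging at least 1000 reads, by the straight-line distance between the pairs of log2 fold changes. LAMB3 was nearest to PCTP, NAGLU and TIGD5, at distances of 0.064 to 0.067. ITGA2 had closer neighbors, SRP72 at 0.0091, VPS26A at 0.012 and SYNE2 at 0.017, and 11 genes lay within 0.05 of it. ITGAV was nearest to PON2 (0.037), TNFRSF11A (0.042) and VCL (0.070), and 2 genes lay within 0.05. The distances rest on 2 comparisons that share siNC.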

How the data were processed

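The members, gene lists and tests were chosen with earlier results of these data known. Paired reads had been mapped to GRCh38 by the authors using HISAT2, followed by StringTie for known transcripts. Their versions are not given in the sources used here. For each gene and library the authors deposited a read count, a TPM value and a normalized log2 value. The last equals log2(read count + 1) after quantile normalization to within 5e-09. The authors' columns headed FPKM repeat the read counts. In all, 21 per-sample columns were not used, nor were the authors' fold changes and volumes.

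Changes are differences of quantile-normalized log2(read count + 1), called at 2-fold. For a ratio of counts the counting interval is the exact 95% Clopper-Pearson one, and for TPM the exact Poisson one. Named were the 9 genes, LINC00941, from each list the genes past 2-fold with both siRNAs or otherwise up to 3 with the largest mean absolute change and at least 100 reads on average, and the 3 nearest genes of 3 members. PLEC, KRT8, VCL, ITGB1P1, COL3A1, COL4A2, HSPG2, DAG1, ITGA1, ITGA10, ITGB7 and LIMS2 were named after their values were seen. A gene of one list is not reported here. Of 16463 genes, 15270 had a GENCODE 44 transcript for G and C content, and its 3′ UTR was used for seed matches. Length groups rest on reads per TPM and cover all genes. Fold changes were also taken under 10 alternatives. Scalings among them were TMM, DESeq2 size factors, total count, quantile-normalized log2(TPM + 1), unscaled TPM ratios and a pseudocount of 10. Others were at least 100 reads on average, protein-coding genes, and removal of the medians of 10 length groups or of 10 G and C content groups. The unscaled ratios and the G and C content groups were added after seeing the data. Apart from these, a 1.5-fold threshold was tried for the calls. Pooled fits (the Wald test of DESeq2 and the quasi-likelihood test of edgeR) were run and are given as fold changes only. Versions were DESeq2 1.42.0 and edgeR 4.0.16 (R 4.3.3), and scipy 1.17.1, numpy 2.4.6, matplotlib 3.10.9 and pandas 2.3.3 (Python 3.11.15).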

Additional observations from a re-analysis of the deposited data

How the results depend on the processing

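With 1 library per condition, no library could be left out. No paired analysis was possible because each condition had 1 library. At a 1.5-fold threshold, 3 of the 9 genes were called with si#1, 3 with si#2, 2 with both and 2 between si#1 and si#2. Over all genes the shares were 26.7%, 29.9%, 16.2% and 17.7% in the same order. Among genes averaging at least 10000 reads, as all 9 do, shares just past this threshold were lower. They were 10.0% under si#1 (at 0.596, the value of ITGA5) and 14.6% under si#2 (at 0.589, that of ILK). Between the siRNAs the share was 3.10% (at -0.585, that of BCAM), in either direction. The share with both siRNAs was not taken at that depth. With the median of genes of like length (reads per TPM) or, chosen after seeing the data, of like G and C content removed, 0 of 9 were called with si#1. Over all genes 1884 of 16463 were called with si#1 after removal by length, and 1588 of 15270 after removal by G and C content. Both siRNA libraries were also pooled as 2 samples against the lone siNC library, which is assumed to vary as they do. The log2 fold changes by DESeq2 were 0.77 for LAMB3, 0.59 for COL17A1, 0.42 for LAMA3 and 0.36 for ITGA3. They were 0.19 for ITGA6, 0.11 for ITGB4, -0.44 for ITGB1, -0.63 for ITGAV and -0.73 for ITGA2. From edgeR came the same rounded values. Calls from these fits are not given, because siNC had 1 library.

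The call counts over all genes depended on the handling of low counts, the measure, the gene set and the threshold. With si#1 and si#2, 1979 and 2085 genes passed 2-fold (43.4% of them upward with either), but 346 and 428 (27.5% and 30.4% upward) from TPM, 667 and 778 (31.6% and 33.2%) at 100 or more reads on average, 1179 and 1260 with a pseudocount of 10, 1008 and 1164 among protein-coding genes and 4388 and 4920 at 1.5-fold. With both siRNAs, 994 became 191 from TPM, 576 with that pseudocount, 387, 544 and 2674 in the same order, and between the siRNAs 1355 became 93, 522, 181, 573 and 2909. Unscaled TPM ratios, added after seeing the data, put the median of all genes at -0.10 and -0.18 and the upward share at 30.3% and 27.9%. Relative to that shift, ITGB1 was at -0.26 and -0.67.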
